A study of Homo sapiens with 4 samples.

Results

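The 50 genes described here encode the kinetochore, the spindle and the regulators of entry into and exit from mitosis. They were chosen by name, for what their proteins do, but with earlier results of these data known. They make up 50 of the 39323 genes with a TPM value (a share of transcripts, corrected for their length) in RNA-seq of 2 cell lines. RD and JR1 are established lines of fusion-negative rhabdomyosarcoma, a childhood tumor of the muscle lineage, and carry no PAX-FOXO1 fusion. Each line was infected with a lentiviral pLKO.1-puro vector that expressed either an shRNA against SKP2 (the shSKP2.2 hairpin, called shSKP2 here) or a non-targeting control shRNA (shSCR), and was selected with puromycin. SKP2 is the subunit of an SCF ubiquitin ligase that recognizes substrates, among them inhibitors of cyclin-dependent kinases. There was 1 library for each line and vector, 4 libraries in all, from 1 hairpin, and every library came from cells that carried a vector.

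Changes were taken within a line as log2 of (TPM + 1) in shSKP2 over (TPM + 1) in shSCR, a scale on which weakly expressed genes show less than their true ratio. All 50 genes averaged 1 TPM or more across the libraries and so belonged to the 12985 tested genes. With 1 library per condition no value has a replicate error and no p-value is given. A gene is said to have fallen only where its change was -1 or lower on this scale (2-fold). The files hold no read numbers, and the sequencing depth behind each value is unknown. SKP2 itself stood at 92.8 TPM in RD shSCR against 7.40 in RD shSKP2, and at 46.5 against 2.72 TPM in the JR1 pair. Of 8 muscle lineage markers 6 averaged 1 TPM or more, MYF5 was at 0 in all libraries, and their summed level was 419 and 579 TPM in RD and 603 and 812 TPM in JR1 (shSCR, then shSKP2). CHRNA1 was the largest part of that sum (196 and 314 TPM in RD, 284 and 425 in JR1). MYOD1, MYOG, CDH15 and CHRNA1 were higher in shSKP2 in both lines. CHRND was lower in both (17.2 and 9.76, then 53.0 and 34.6 TPM) and DES in JR1 only (51.3 and 36.0 TPM). Lists for other cell types were low, with sums of at most 6.49 TPM for 6 epithelial, 3.16 TPM for 6 leukocyte and 0.450 TPM for 4 endothelial markers. The 5 fibroblast markers summed to 307 and 77.6 TPM in RD and 396 and 72.9 TPM in JR1, nearly all of it COL1A1, while PDGFRA was at or below 0.0600 TPM everywhere. The part of these marker levels in the results was not tested.

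In mitosis, cyclin B with the kinase CDK1 drives the condensation of chromosomes and the building of the spindle. Kinetochores assemble on centromeric chromatin marked by the histone variant CENP-A and bind microtubules through the NDC80 complex, and kinetochores that are not attached send the checkpoint signal that holds back the anaphase-promoting complex. Most of the transcripts accumulate in G2 and mitosis, under FOXM1, B-MYB and the MuvB complex, and are repressed in resting cells by the DREAM complex, which acts at the cell cycle genes homology region (CHR) of their promoters. The level of such transcripts in a culture therefore depends on how many cells are in those phases. In bulk RNA, fewer cells in G2 and mitosis and less RNA of these genes per cell cannot be told apart.

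All 50 mitotic genes were lower in shSKP2 than in shSCR in both lines, where 61.1% of all tested genes were. Their median change was -0.74 in RD and -0.90 in JR1, against -0.27 and -0.21 for all tested genes. In RD 10 of the 50 fell by at least 2-fold (7.37% of all tested genes did). These were BUB1, TTK, CENPM, NDC80, SPC24, ZWINT, CDK1, CDC25B, HMMR and PRC1. In JR1 21 of the 50 fell (9.05% of all tested genes), and 9 fell in both lines (4.79%), since ZWINT alone of the 10 stopped short in JR1, at -0.91. None rose by 2-fold in either line. NDC80 at -1.0 was the member closest inside the limit in RD and ESPL1 at -0.99 the closest outside it.

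Part of this shift was shared by most genes. Short structural RNAs such as 7SL and 7SK took 50.1% of the TPM in RD shSCR, 62.3% in RD shSKP2, 57.1% in JR1 shSCR and 64.9% in JR1 shSKP2, which lowers the TPM of every other gene. When changes were centred on all tested genes, the median of the mitotic genes was -0.47 in RD and -0.69 in JR1, and 45 of the 50 were below 0 on that scale in both lines (37.9% of all tested genes). After removal of the structural RNA genes and rescaling, the medians were -0.37 in RD and -0.66 in JR1, against 0.10 and 0.03 for all tested genes. On that scale 43 of the 50 were lower in both lines (31.9% of all tested genes), 3 fell by 2-fold in RD (3.41%) and 12 in JR1 (6.73%). The 3 were CENPM, SPC24 and HMMR, and all of them also fell in JR1. The other genes that fell in JR1 on that scale were BUB1, TTK, MAD2L1, NDC80, CENPE, CDK1, PRC1, ANLN and ESPL1. The split of lower to higher genes moved from 50 and 0 to 44 and 6 in RD and to 49 and 1 in JR1, and the genes that were then higher were BUB3, CENPF, CDCA8, CCNB2, CDC25C and NEK2 in RD and ZW10 in JR1.

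Promoters of 41 of the 50 genes were found in RefSeq (GRCh38.p14) as windows of 300 bases, from 250 before to 50 after the transcription start. For a gene with several windows the first was used. The window's start lay within 50 bases of the start in the deposited tables for 34 of the 41 genes. It lay farther away for 7 (ZWILCH, CENPI, SPC24, DSN1, CENPE, AURKB and ANLN), by 215 bases in SPC24, 542 in AURKB and 2899 in CENPI. Motif positions, and whether a motif is found, thus depend on the start that is used. The other 9 genes were BUB3, TTK, CENPM, KNL1, BIRC5, AURKA, FOXM1, TPX2 and UBE2C. The 6 stretches below are those of the genes with the largest falls in both lines among the 41 (HMMR, SPC24, CDK1 and BUB1) and of the genes with the smallest changes (NEK2 and ZW10). They are shown as the ends of the range of change, and since the CHR and CCAAT letters are a known feature of mitotic promoters. Each is written 5′ to 3′ along the strand of the gene, from 250 bases before to 30 bases after the start, and capitals mark the CHR, CCAAT and E2F letters on either strand.
HMMR, chr5:163460382-163460661, plus strand: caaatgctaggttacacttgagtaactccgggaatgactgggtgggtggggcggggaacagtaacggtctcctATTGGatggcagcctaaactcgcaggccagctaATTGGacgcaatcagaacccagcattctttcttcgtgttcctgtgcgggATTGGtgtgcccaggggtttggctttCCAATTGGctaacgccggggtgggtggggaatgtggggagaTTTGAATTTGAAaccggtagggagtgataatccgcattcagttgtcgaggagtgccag
SPC24, chr19:11155753-11156032, minus strand: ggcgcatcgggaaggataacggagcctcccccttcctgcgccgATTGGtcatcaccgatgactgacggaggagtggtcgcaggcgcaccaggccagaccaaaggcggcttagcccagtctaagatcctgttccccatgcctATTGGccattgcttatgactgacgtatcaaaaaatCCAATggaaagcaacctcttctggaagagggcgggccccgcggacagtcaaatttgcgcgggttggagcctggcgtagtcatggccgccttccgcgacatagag
CDK1, chr10:60778081-60778360, plus strand: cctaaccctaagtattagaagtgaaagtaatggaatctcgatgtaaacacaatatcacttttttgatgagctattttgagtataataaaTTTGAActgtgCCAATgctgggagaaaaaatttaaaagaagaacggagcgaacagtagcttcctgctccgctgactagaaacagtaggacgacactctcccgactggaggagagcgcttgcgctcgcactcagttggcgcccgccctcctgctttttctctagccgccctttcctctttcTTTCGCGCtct
BUB1, chr2:110678034-110678313, minus strand: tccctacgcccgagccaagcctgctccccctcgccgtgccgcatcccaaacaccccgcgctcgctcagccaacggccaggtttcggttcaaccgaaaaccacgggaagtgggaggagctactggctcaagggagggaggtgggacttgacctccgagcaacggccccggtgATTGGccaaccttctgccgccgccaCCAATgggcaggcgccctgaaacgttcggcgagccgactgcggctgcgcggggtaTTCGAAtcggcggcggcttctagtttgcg
NEK2, chr1:211675592-211675871, minus strand: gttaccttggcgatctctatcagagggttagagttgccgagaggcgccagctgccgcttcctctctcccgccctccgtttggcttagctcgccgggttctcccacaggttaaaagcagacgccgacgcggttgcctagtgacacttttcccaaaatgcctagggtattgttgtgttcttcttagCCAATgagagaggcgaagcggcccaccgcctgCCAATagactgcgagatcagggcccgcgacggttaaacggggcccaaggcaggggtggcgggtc
ZW10, chr11:113773663-113773942, minus strand: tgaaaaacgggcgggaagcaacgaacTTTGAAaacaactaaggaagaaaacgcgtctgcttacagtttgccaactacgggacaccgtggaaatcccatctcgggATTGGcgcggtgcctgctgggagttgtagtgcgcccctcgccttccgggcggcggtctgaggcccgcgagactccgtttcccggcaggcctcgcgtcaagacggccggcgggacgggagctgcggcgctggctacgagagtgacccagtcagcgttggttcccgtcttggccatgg

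The CHR was searched as TTTGAA or TTCGAA, the CCAAT box bound by NF-Y as CCAAT, and E2F sites as TTTCCCGC, TTTGGCGC, TTTCGCGC or TTTGCCGC, on both strands. A CHR word was present in 28 of the 41 windows (68.3%), compared with 16.6% of the windows of all 27305 genes and 11.1% of those of the 10090 tested genes in the table. Within 50 bases of the start it was found in 22 of 41 (53.7%), compared with 5.05% of all and 3.16% of tested genes. A CCAAT box was present in 32 (78.0%), against 35.7% and 37.3%. At least 2 CCAAT boxes were found in 22 (53.7%), against 11.3% and 14.3%. CHR and CCAAT together were present in 24 (58.5%), against 6.58% and 4.86%. E2F words were rare, in 4 of the 41 (9.76%), against 3.33% and 5.64%.

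The printed promoters differed in these letters. HMMR held 2 adjoining CHR words just before the start and 5 CCAAT words, of which 2 overlap as CCAATTGG. SPC24 held 3 CCAAT boxes and no CHR word. CDK1 was the only one of the 6 with an E2F word, which lies after the start, and BUB1 held 1 CHR word at the start below 2 CCAAT boxes. NEK2 held 2 CCAAT boxes and no CHR, and in ZW10 the CHR word began at base -224 from the start. Across the 41 genes, the 28 with a CHR word had median changes of -0.81 (RD) and -0.97 (JR1), and the 13 without had -0.66 and -0.70. Among the 13 were ZWILCH, CENPI, SPC24, DSN1, CENPE and AURKB, whose windows start more than 50 bases from the deposited start. CDC25B and CDC25C, also among them, each had 4 windows, of which only the first was read. A CHR word at another start would be missed, so this split is uncertain. The 32 genes with a CCAAT box had medians of -0.72 and -0.89, and the 9 without had -0.90 and -1.02. These are descriptions of letters in a window, and no binding was measured in these libraries.

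**Figure D1:**
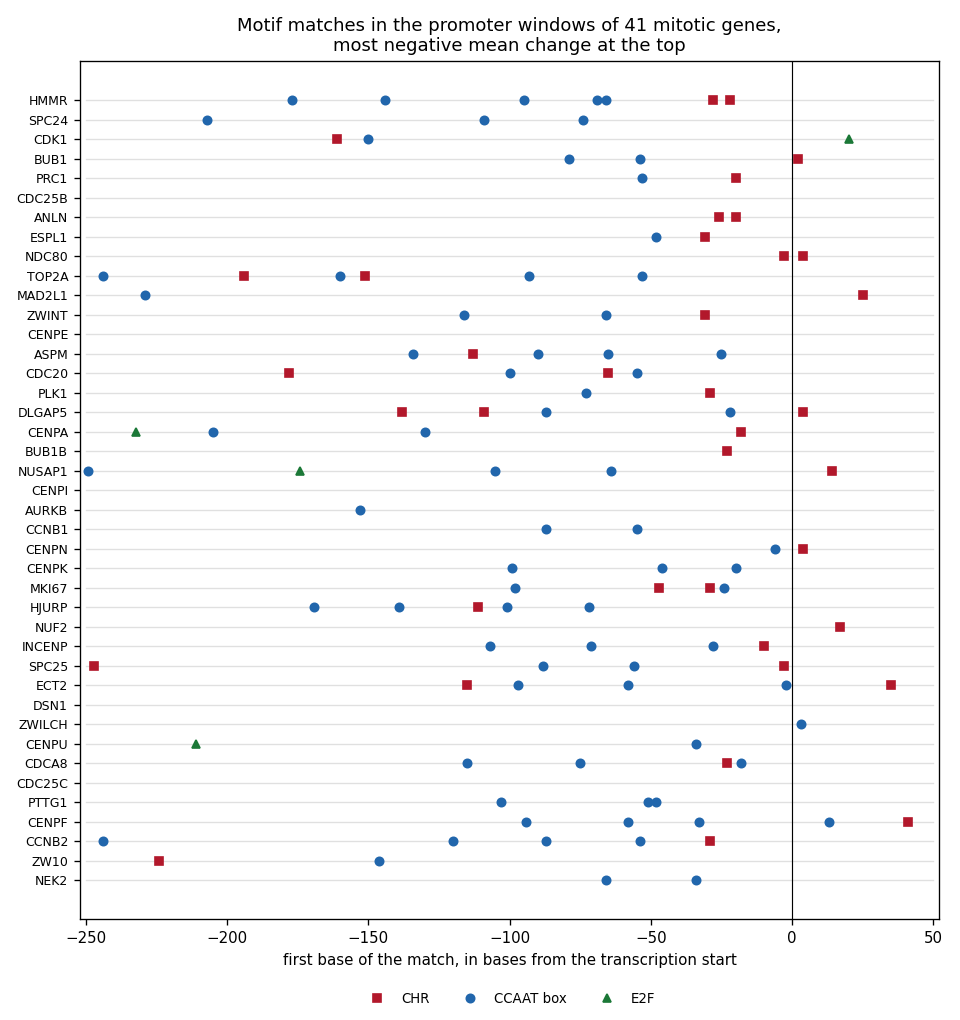
Position of CHR (squares), CCAAT (circles) and E2F (triangles) words in the promoter windows of 41 mitotic genes, in bases from the transcription start (x axis), with the most negative mean change of both lines at the top (y axis). CHR words were found in 28 of the 41 windows and CCAAT boxes in 32, and both occur among genes at the top and at the bottom.

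The levels of most of the 50 genes put the libraries in the same order. Their summed level was 1899 TPM in RD shSCR, 1172 in RD shSKP2, 847.6 in JR1 shSCR and 440.0 in JR1 shSKP2. The median gene stood at 24.0, 13.6, 9.55 and 5.44 TPM in the same order. With TPM as deposited RD shSCR held the highest value of all 50 genes and JR1 shSKP2 the lowest. After removal of structural RNA genes RD shSCR was highest for 43 and JR1 shSKP2 lowest for 48. The matching shares of all tested genes were not counted. All tested genes leaned the same way by their medians, which were lower in shSKP2 (-0.27 in RD, -0.21 in JR1) and higher in RD than in JR1, so part of this order is shared. For 42 of the 50 the full order was RD shSCR, RD shSKP2, JR1 shSCR, JR1 shSKP2 (18.5% of all tested genes had this order), so that RD cells with the SKP2 hairpin still exceeded control JR1 cells. The exceptions were TTK, ZW10, ZWILCH, CENPK, CENPM, CDK1, CDC25B and HMMR, which were higher in JR1 shSCR than in RD shSKP2. With structural RNA genes removed 37 genes had the order (9.36% of all tested genes), of which 36 also had it as deposited and TTK did not. On that scale 44 were higher in RD shSKP2 than in JR1 shSCR, and the matching share of all tested genes was not counted. Between the lines, the median log2 of (TPM + 1) in RD over JR1 was 1.18 in shSCR and 1.39 in shSKP2, compared with 0.23 and 0.17 for all tested genes. In shSCR 32 of the 50 were at least 2-fold higher in RD (6.50% of all tested genes) and in shSKP2 39 were (5.39%). The smallest line difference was that of ZWILCH in both vectors, 0.15 and 0.08. The largest were those of SPC24 in shSCR (1.81) and MKI67 in shSKP2 (1.88). These line differences share their libraries with the changes within lines and are not independent of them.

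**Figure D2:**
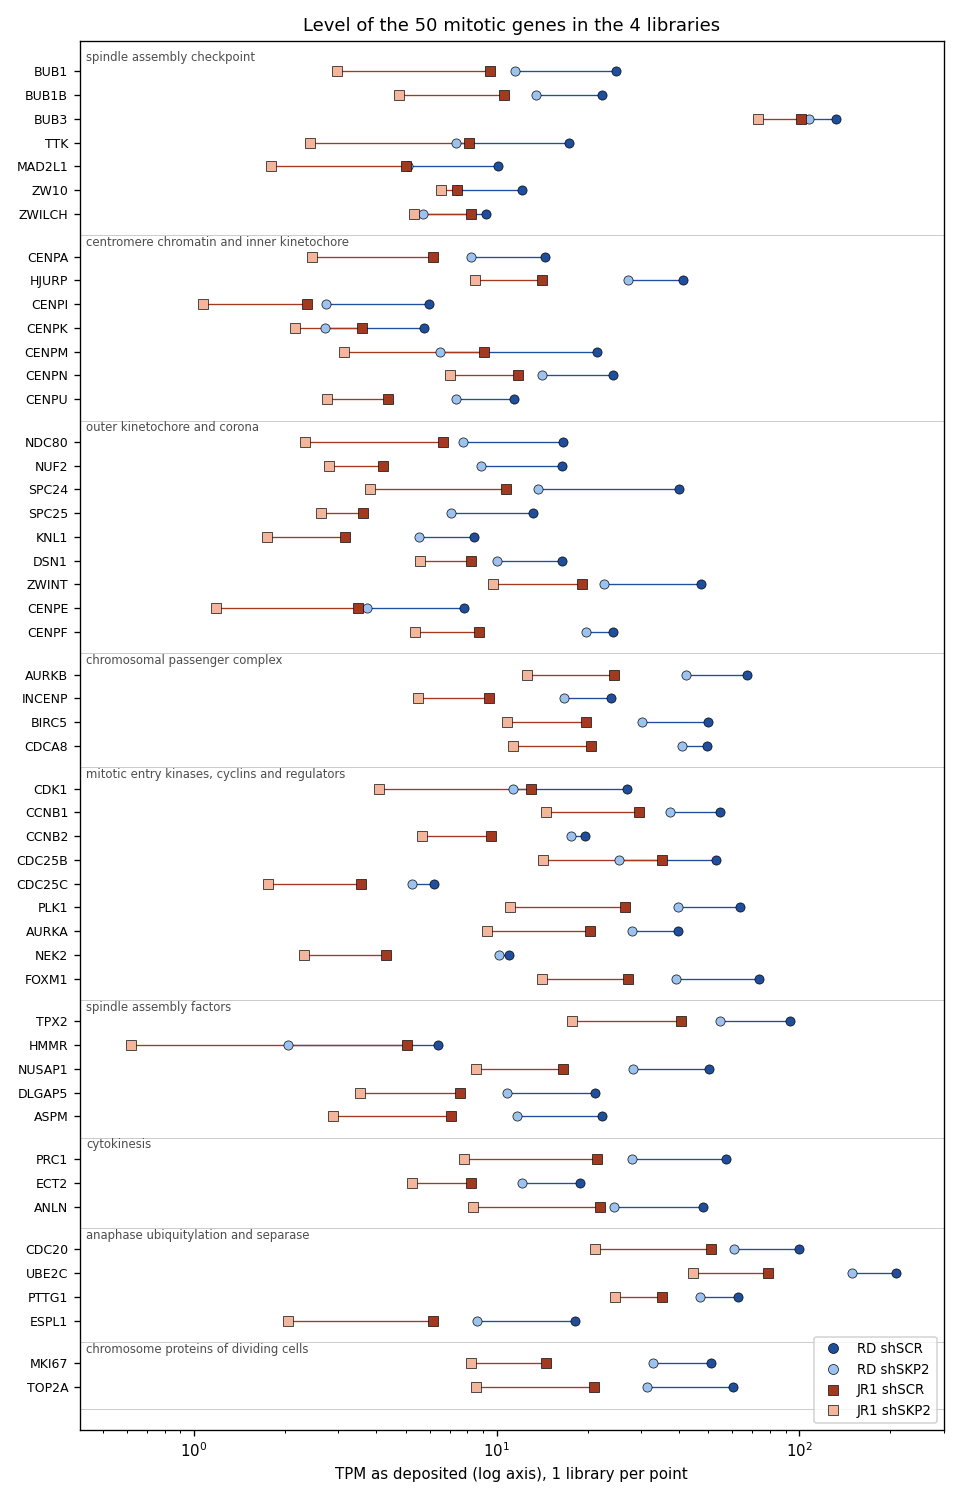
TPM of the 50 genes as deposited (x axis, log scale) in the 4 libraries, grouped by function (y axis), with a line joining shSCR and shSKP2 of the same line. RD shSCR holds the highest and JR1 shSKP2 the lowest value of every gene, from 208 TPM for UBE2C in RD shSCR to 0.620 TPM for HMMR in JR1 shSKP2. The share of all tested genes with these extremes was not counted.

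The spindle assembly checkpoint genes had median changes of -0.68 (RD) and -1.02 (JR1). Of the 7 genes 2 fell in RD and 4 in JR1. TTK, the kinase also known as MPS1 that starts the checkpoint signal, was measured at 17.3 TPM in RD shSCR against 7.35 in RD shSKP2, and at 8.13 and 2.42 TPM in JR1, changes of -1.14 and -1.42. BUB1, a kinase that gathers checkpoint proteins at the kinetochore, went from 24.7 to 11.5 TPM in RD cells and from 9.51 to 2.96 in JR1 (-1.04 and -1.41). Both were lower in the shSKP2 library of each line. BUB3, which carries BUB1 and BUB1B to kinetochores and also serves outside mitosis, changed least in RD and by the mean of both lines, with 132 and 108 TPM in RD and 101 and 72.9 TPM in JR1 (-0.29 and -0.47, and 0.11 and -0.18 with structural RNA genes removed). ZW10, a subunit of the complex that brings dynein and MAD proteins to kinetochores, changed from 12.1 to 7.39 TPM in RD and was at 7.40 and 6.53 TPM in JR1 (-0.64 and -0.16, the second of which became 0.06 relative to the median and 0.10 after the removal). Its partner ZWILCH stayed between 5.35 and 9.20 TPM in all libraries. MAD2L1, which encodes MAD2, the inhibitor of CDC20, and BUB1B, which encodes the BUBR1 subunit of the same inhibitor, fell in JR1 (-1.11 and -1.02) and had changes of -0.86 and -0.68 in RD.

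Among the centromere and inner kinetochore genes CENPM fell in both lines and CENPA in JR1. CENPM, a subunit of the constitutive centromere network on chromosome 22 (bases 41927747 to 41947152, GRCh38), had 21.4 TPM in RD shSCR against 6.51 in RD shSKP2, and 9.05 against 3.13 in JR1. Its change of -1.58 in RD was the most negative of the 50 genes there, and it was -1.28 in JR1. CENPA, the histone variant that marks the centromere, had 14.4 and 8.22 TPM in RD and 6.17 and 2.46 TPM in JR1 (-0.74 and -1.05). CENPU, another subunit of the network, changed least of the group, from 11.4 to 7.33 TPM in RD cells and from 4.36 to 2.76 in JR1 (-0.57 and -0.51). CENPU overlaps PRIMPOL, which was listed at 1.54 to 2.61 TPM. The other members, CENPI, CENPK, CENPN and HJURP, the chaperone that loads CENP-A, had changes of -0.91 to -0.59 in RD and -0.70 to -0.54 in JR1. The group medians were -0.74 and -0.68, and 1 of 7 fell in RD and 2 in JR1.

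Of the 9 genes of the outer kinetochore and corona 3 fell in RD and 3 in JR1, with medians of -0.81 and -0.61. SPC24 led the group, with 40.1 TPM in RD shSCR, 13.7 in RD shSKP2, 10.7 in JR1 shSCR and 3.82 in JR1 shSKP2 (-1.48 and -1.28). NDC80, whose protein binds the microtubule end, had 16.5 and 7.74 TPM in RD and 6.63 and 2.33 TPM in JR1 (-1.0 and -1.20). Both are subunits of the NDC80 complex, yet the other two subunits moved less in JR1, where NUF2 changed by -0.45 and SPC25 by -0.35, while both changed by -0.81 in RD. CENPF, a large protein of the corona, changed least in RD and by the mean of both lines, from 24.3 to 19.8 TPM in RD cells and from 8.73 to 5.39 in JR1 (-0.29 and -0.61), and its RD value turned to 0.10 with structural RNA genes removed. CENPE, the kinesin of the corona, had changes of -0.90 and -1.04 and was the third gene of the group to fall in JR1. KNL1, the scaffold for BUB proteins, DSN1, of the MIS12 complex, and ZWINT, which binds KNL1, ranged from -1.03 to -0.53 in RD and from -0.91 to -0.49 in JR1.

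None of the 4 subunits of the chromosomal passenger complex fell by 2-fold in either line, and their medians were -0.58 in RD and -0.81 in JR1. AURKB, the kinase of the complex, had 67.3 TPM in RD shSCR, 42.1 in RD shSKP2, 24.5 in JR1 shSCR and 12.6 in JR1 shSKP2 (-0.67 and -0.91). CDCA8, which encodes borealin, had 49.6 and 41.1 TPM in RD and 20.5 and 11.3 TPM in JR1 (-0.27 and -0.80), and its RD change was 0.13 with structural RNA genes removed. BIRC5 (survivin) changed by -0.71 and -0.81, and INCENP, the scaffold, by -0.49 and -0.69. In JR1 the 4 subunits lay close together, with an SD of 0.09 across them, compared with 0.35 across all 50 genes.

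The regulators of mitotic entry were the most divided group in RD, with an SD of 0.39 across 9 genes against 0.31 across all 50. CDK1, the kinase that drives entry, stood at 26.9 TPM in RD shSCR, 11.3 in RD shSKP2, 13.0 in JR1 shSCR and 4.10 in JR1 shSKP2 (-1.18 and -1.46). CDC25B, a phosphatase that activates CDK1, also fell in both lines (-1.04 and -1.25). At the other end, NEK2, a kinase that parts the centrosomes, had 11.0 and 10.2 TPM in RD and 4.31 and 2.31 TPM in JR1 (-0.11 and -0.68), CCNB2 had 19.6 and 17.6, then 9.60 and 5.66 TPM (-0.15 and -0.67), and CDC25C had 6.19 and 5.24, then 3.56 and 1.76 TPM (-0.20 and -0.72). These 3 were nearly level in RD, and when centred on all tested genes they were slightly higher there, by 0.16, 0.12 and 0.07. CDC25C overlaps FAM53C, which was listed at 24.1 to 35.5 TPM, and how reads of overlapping genes were divided by strand is not given in the sources used here.

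CCNB1, the main cyclin B, had 54.5 TPM in RD shSCR against 37.3 in RD shSKP2, and 29.5 and 14.6 TPM in JR1 (-0.53 and -0.97). PLK1, which acts at centrosomes and kinetochores, went from 63.6 to 39.8 TPM in RD cells and from 26.6 to 11.1 in JR1 (-0.66 and -1.19). AURKA, the kinase of the spindle poles, went from 39.7 to 27.9 TPM in RD cells and from 20.3 to 9.30 in JR1 (-0.49 and -1.05). PLK1 and AURKA thus fell in JR1 and stayed inside the limit in RD, a difference between the lines that was not tested. With structural RNA genes removed both stayed inside the limit in JR1 as well (-0.95 and -0.81). FOXM1, the transcription factor of the late cell cycle, had the same change in both lines, from 73.8 to 39.1 TPM in RD cells and from 27.1 to 14.1 in JR1, a value of -0.90 in each. FOXM1 overlaps RHNO1, which had 30.3 and 15.7 TPM in RD and 18.1 and 8.79 TPM in JR1, and ITFG2, which had 11.3 and 11.5 TPM in RD and 7.12 and 7.57 TPM in JR1, so reads of these genes may not be fully apart. The group medians were -0.53 and -0.97, with 2 of 9 falling in RD and 4 in JR1 (0 and 1 with structural RNA genes removed).

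HMMR had the most negative change of the spindle assembly factors, and of all 50 genes in JR1. It encodes a microtubule-associated protein of the spindle, lies on chromosome 5 (bases 163460632 to 163491941) and had 6.41 TPM in RD shSCR, 2.04 in RD shSKP2, 5.05 in JR1 shSCR and 0.620 in JR1 shSKP2. Its changes were -1.29 and -1.90, and the ratio of TPM without the added 1 was 3.14-fold in RD and 8.15-fold in JR1, the latter against a level under 1 TPM. It was also the member with the smallest difference between the shSCR libraries after ZWILCH, 0.29 in RD over JR1. NUSAP1, which bundles spindle microtubules, changed least by the mean of both lines, from 50.3 to 28.2 TPM in RD cells and from 16.5 to 8.56 in JR1 (-0.81 and -0.87). TPX2, the activator of AURKA, DLGAP5, a factor of the kinetochore fibers, and ASPM, of the spindle poles, lay between -0.91 and -0.76 in RD and between -1.15 and -0.92 in JR1. The group medians were -0.88 and -1.06, 1 of 5 fell in RD and 3 in JR1, and all 5 changed more in JR1.

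The 3 genes of cytokinesis had the most negative group medians, -0.94 in RD and -1.29 in JR1. PRC1, which crosslinks the microtubules of the central spindle, fell from 57.2 to 27.9 TPM in RD cells and from 21.5 to 7.81 in JR1 (-1.01 and -1.35). ANLN, a scaffold of the contractile ring, fell in JR1 and nearly reached the limit in RD (-1.29 and -0.94). ECT2, the exchange factor that activates RhoA at the cleavage site, changed less, from 18.9 to 12.1 TPM in RD cells and from 8.22 to 5.26 in JR1 (-0.60 and -0.56).

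Among the genes of anaphase, ESPL1 and CDC20 fell in JR1 and none fell in RD. ESPL1 encodes separase, the protease that cuts cohesin, and had 18.1 and 8.60 TPM in RD and 6.18 and 2.05 TPM in JR1 (-0.99 and -1.24). PTTG1 encodes securin, the inhibitor of separase, and changed least, from 62.9 to 47.0 TPM in RD cells and from 35.2 to 24.6 in JR1 (-0.41 and -0.50). CDC20, the activator of the anaphase-promoting complex, changed by -0.70 and -1.23. UBE2C, the ubiquitin-conjugating enzyme of that complex, was the most abundant of the 50 in both RD libraries (208 and 149 TPM) and changed by -0.48 in RD and -0.81 in JR1. UBE2CP5, a pseudogene copy of UBE2C, was listed at 5.95, 8.97, 4.65 and 7.34 TPM in the 4 libraries, and AURKAP1, a pseudogene copy of AURKA, at 1.43, 2.86, 0.980 and 2.0 TPM (RD shSCR, RD shSKP2, JR1 shSCR, JR1 shSKP2). Reads of a gene and its copy may be shared between them, so the values of UBE2C and AURKA carry that uncertainty.

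TOP2A, the topoisomerase that untangles sister chromatids, had 60.2 TPM in RD shSCR, 31.3 in RD shSKP2, 20.9 in JR1 shSCR and 8.52 in JR1 shSKP2 (-0.92 and -1.20). MKI67, the Ki-67 protein that coats mitotic chromosomes and serves as a marker of dividing cells, was listed in the same order at 50.9, 32.9, 14.6 and 8.21 TPM (-0.61 and -0.76). Both were lower after SKP2 depletion in each line, and TOP2A fell by 2-fold in JR1.

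**Figure D3:**
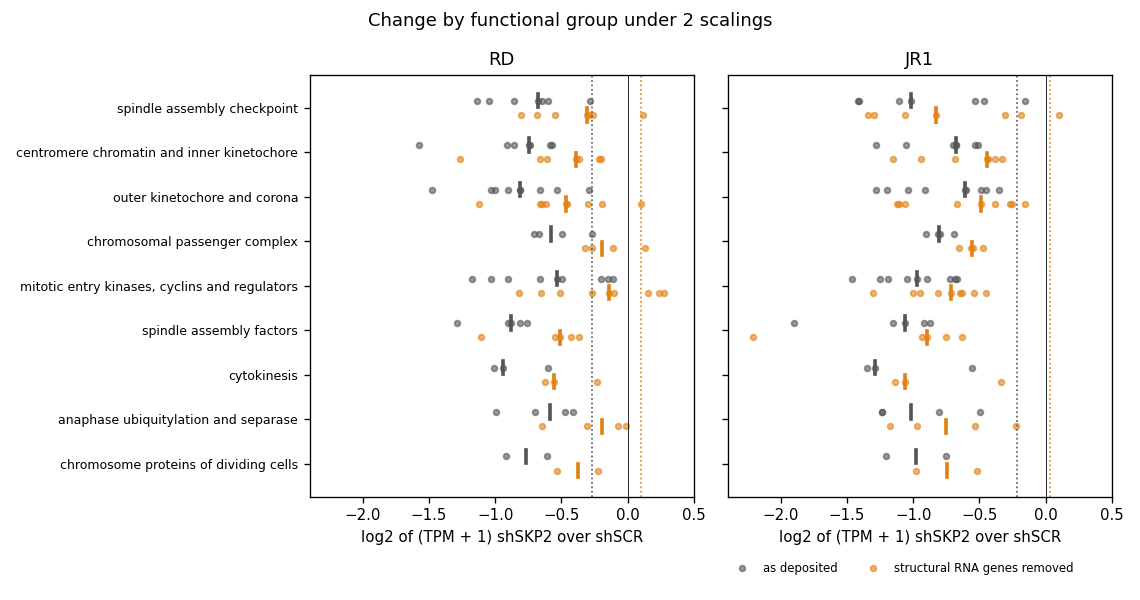
Change of each gene by functional group (y axis) in RD (left) and JR1 (right), as log2 of (TPM + 1) in shSKP2 over shSCR (x axis), with TPM as deposited in grey and with structural RNA genes removed in orange. Bars mark group medians and dotted lines the median of all tested genes on each scale; every group median lies left of the dotted line of its scale in both lines.

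The RD and JR1 changes of the 50 genes, which share no library, were related, with r = 0.64 by Pearson and rho = 0.69 by Spearman across genes, which are not independent replicates. Across all 12985 tested genes the values were close to these, 0.62 and 0.70. Of the 50, 36 had the more negative change in JR1 (42.1% of all tested genes did), 38 when centred on all tested genes (49.1%) and 44 with structural RNA genes removed (56.3%). By function, this held for 8 of 9 genes of mitotic entry, 5 of 5 spindle factors, 4 of 4 genes each of the passenger complex and of anaphase, and 5 of 7 checkpoint genes. It held for 2 of 7 centromere genes and 4 of 9 outer kinetochore genes, which became 5 and 6 with structural RNA genes removed. Among genes more negative in JR1 the largest gaps between the lines were those of HMMR (0.62), NEK2 (0.57) and AURKA (0.56), and among genes more negative in RD those of ZW10 (-0.49) and SPC25 (-0.46). With 1 library per condition these gaps were not tested.

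Ratios of 2 genes within a library do not depend on the scaling of that library. Of 21 pairs of partners in a complex or pathway, chosen after their values had been seen, 10 had a higher ratio in shSKP2 in both lines, 8 a lower one in both, and 3 moved in opposite directions. CCNB1 transcripts stood at 2.02 times those of CDK1 in RD shSCR and 3.30 times in RD shSKP2, and at 2.26 and 3.56 times in JR1. CCNB2 over CDK1 went from 0.729 to 1.55 in RD and from 0.737 to 1.38 in JR1, and NEK2 over CDK1 from 0.411 to 0.897 and from 0.331 to 0.563. In both lines the kinase was thus lower in relation to these partners in the shSKP2 library. SPC25 over SPC24, which form the end of the NDC80 complex that faces the centromere, went from 0.328 to 0.515 in RD and from 0.340 to 0.688 in JR1. NUF2 over NDC80, which form the other end, went from 0.991 to 1.15 and from 0.633 to 1.20. Securin over separase (PTTG1 over ESPL1) was 3.48 and 5.47 in RD and 5.69 and 12.0 in JR1, and CENPF over CENPE was 3.12 and 5.31, then 2.51 and 4.57. Other pairs of the same complexes moved little or the other way. SPC25 over NUF2 was 0.805 and 0.796 in RD and 0.864 and 0.939 in JR1, and SPC24 over NDC80 was 2.43 and 1.78, then 1.61 and 1.64. BIRC5 over CDCA8 was 1.0 and 0.732 in RD and 0.963 and 0.952 in JR1, and AURKB over INCENP stayed within 2.30 to 2.82 in all libraries. BUB1 over BUB3 was lower in shSKP2 in both lines, at 0.187 and 0.106, then 0.0939 and 0.0406. The ratios carry no replicate error.

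**Figure D4:**
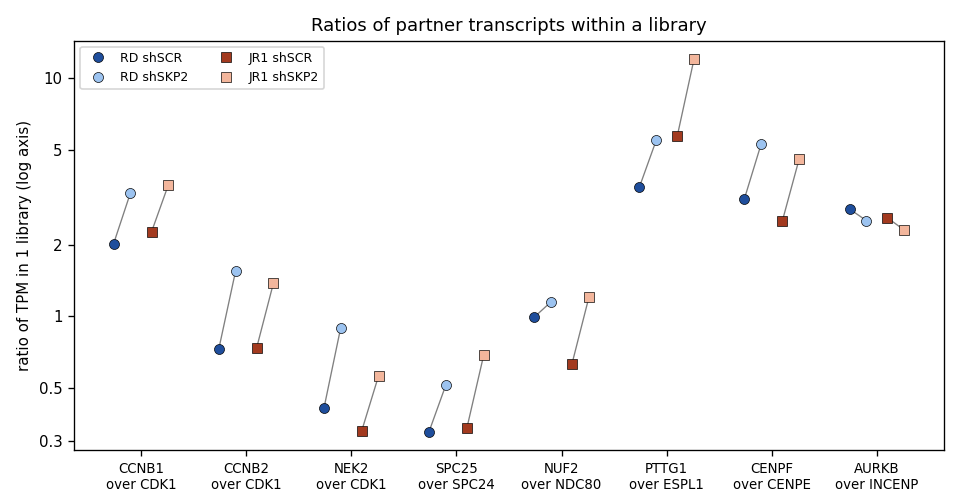
Ratio of the TPM of partner genes within each library (y axis, log scale) for 8 of the 21 pairs (x axis), with a line joining shSCR and shSKP2 of the same line. CCNB1, CCNB2 and NEK2 over CDK1 are higher in the shSKP2 library of both lines, and AURKB over INCENP lies within 2.30 to 2.82. The pairs were chosen after their values had been seen. Of all 21, 10 were higher in shSKP2 in both lines, 8 lower in both (among them BUB1 over BUB3, not drawn) and 3 opposite.

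The other genes of these complexes were read from 7 lists of 91 genes in all, and changed less. Their median was -0.58 in RD and in JR1, and 88 of 91 were lower in RD (75.0% of all tested genes) and 78 in JR1 (68.9%). In each line 13 of the 91 fell by 2-fold (7.37% and 9.05% of all tested genes), 7 of them in both (4.79%). With structural RNA genes removed the medians were -0.22 and -0.35, 66 were lower in RD (40.8%) while 61 were in JR1 (47.4%), and 3 fell in RD, 6 in JR1 and 3 in both (3.41%, 6.73% and 2.40%). The lowest and highest gene of each list, named below, are those by the mean change of both lines. Other genes of mitotic entry had more negative medians than the 50 genes, -0.95 and -0.93 (-0.57 and -0.82 with structural RNA genes removed). Of these, 12 of 12 were lower in both lines, and 4 fell in RD and 5 in JR1. In that list MYBL2, which encodes B-MYB, was lowest by that mean (105 to 45.7 TPM in RD, 37.2 to 16.2 in JR1, -1.18 and -1.15) and CDC25A, a phosphatase of the G1 to S step, highest (-0.17 and -0.07, which turned to 0.22 and 0.20 with structural RNA genes removed). Among 12 other inner kinetochore and CENP-A loading genes the medians were -0.48 and -0.75, from CENPH (-1.53 and -1.12) to CENPL (-0.31 and -0.02, which turned to 0.07 and 0.25 after that removal). Among 14 other outer kinetochore and checkpoint genes they were -0.48 and -0.49, from KNTC1 (-1.18 and -0.84), the partner of ZW10 and ZWILCH, to SKA2 (0.36 and 0.80), which was higher in both lines.

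Genes of the spindle and midbody (12) had medians of -0.68 and -0.62, from CEP55 (-1.50 and -1.73), which organizes abscission, to RHOA (-0.25 and 0.18, the first of which was 0.15 with structural RNA genes removed). Condensin and cohesin subunits (13) had medians of -0.82 and -0.63, the first of them more negative than the -0.74 of the 50 genes in RD. STAG2 was lowest by the mean (-1.23 and -0.92) and RAD21 highest (-0.49 and -0.10, the second of which was 0.19 after the removal). The 17 genes of the anaphase-promoting complex and its partners lay near the median of all tested genes in JR1, with medians of -0.38 and -0.21, from ANAPC15 (-1.15 and -1.02) to ANAPC16 (-0.05 and 0.27, the first of which was 0.33 after the removal). The same held for 11 genes of the MuvB core and DREAM complex (-0.44 and -0.18), from RBL2, the p130 pocket protein (12.1 to 3.88 TPM in RD and 9.34 to 3.60 in JR1, -1.43 and -1.17), to TFDP2 (0.36 and 0.51). After the removal the medians were 0.01 and 0.08 for the anaphase-promoting complex list and -0.09 and 0.10 for the MuvB list. All tested genes then had 0.10 and 0.03. For comparison, 16 replication licensing factors had medians of -0.73 and -0.53 with 3 falling in each line, and 12 mitotic kinesins had -0.91 and -0.96 with 2 falling in RD and 5 in JR1, where 7.37% and 9.05% of all tested genes fell. With structural RNA genes removed the licensing factors had medians of -0.34 and -0.29 with 1 falling in RD and 3 in JR1, and the kinesins had -0.54 and -0.80 with 1 and 3. The medians of these lists were not tested against those of the 50 genes.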

How the data were processed

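Total RNA of each line and vector was poly-A selected, made into directional libraries and sequenced as pairs of 150 bases. Per the submitters' processing notes, the authors aligned reads to GRCh38 with STAR 2.7.9a and RSEM 1.3.2 gave the deposited TPM, 1 value per gene and library with 2 decimals. The strand setting of the counting is not given in the sources used here.

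The TPM were used as deposited. Genes that averaged 1 TPM or more across the 4 libraries entered the comparisons, and log2 of (TPM + 1) ratios were taken within lines. There was no test, since each group holds 1 library. Alternatives were a pseudocount of 0.1 TPM, centring on the median, removal of 655 short structural RNA genes (or 1073 with RMRP, RPPH1 and transfer RNA genes) with TPM rescaled, no filter, a minimum of 5 TPM and a limit of 1.5-fold. The members, groups and lists were chosen with earlier results of these data known. Values in every library were given for the members with the largest and smallest change of each group, for CDK1, CCNB1, PLK1, AURKA, AURKB, BUB1, CENPA, NDC80, FOXM1, MKI67 and TOP2A, and for members whose direction differed between the lines. Of each other list the highest and lowest gene was named. The genes named for overlaps and copies were chosen after values were seen, as were the ratios. The scripts were tested on simulated data. Software was matplotlib 3.10.9, pandas 2.3.3, numpy 2.4.6 and scipy 1.17.1 under Python 3.11.15.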

Additional observations from a re-analysis of the deposited data

Results flagged for a closer look

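Relative to the median change of all tested genes, 4 of the 50 mitotic genes moved in opposite directions in the lines. By comparison, 45 of the 50 were below that median in both lines, where 37.9% of all tested genes were. The share of all tested genes with opposite directions was not counted directly. Of the 12985 tested genes 6492 lay below the median in RD and 6492 in JR1, but only 4927 in both. Many other genes thus lay below it in 1 line only, and opposite directions are not particular to the mitotic genes. ZW10 was lower in RD and slightly higher in JR1 (-0.37 and 0.06, a difference of -0.43 on the log2 scale, RD minus JR1). NEK2 was higher in RD and lower in JR1 (0.16 and -0.47, a difference of 0.63), as were CDC25C (0.07 and -0.51, a difference of 0.58) and CCNB2 (0.12 and -0.46, a difference of 0.57). With TPM as deposited all 4 were lower in both lines. Each value rests on 1 library per condition and the difference was not tested.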

How the results depend on the processing

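No setting reversed the direction of a median of the 50 genes. With a pseudocount of 0.1 TPM the medians were -0.77 in RD, -0.97 in JR1, 1.26 for RD over JR1 in shSCR and 1.57 in shSKP2. Centred on all tested genes they were -0.47, -0.69, 0.95 and 1.22, without structural RNA genes -0.37, -0.66, 1.01 and 1.40, and also without RMRP, RPPH1 and transfer RNA genes -0.35, -0.69, 0.94 and 1.37. With a minimum of 5 TPM, which 44 of the 50 genes passed, they were -0.72, -0.91, 1.20 and 1.41. The genes that fell numbered 3 in RD and 11 in JR1 when centred. Without structural RNA genes they numbered 3 and 12 (3.41% and 6.73% of all tested genes). They numbered 3 in RD and 14 in JR1 without the wider set, 14 and 24 with a pseudocount of 0.1 TPM, and 9 and 19 with a minimum of 5 TPM. At a limit of 1.5-fold, which lowers the bar by construction, they numbered 37 and 40. Genes at least 2-fold higher in RD in shSCR numbered 20 when centred and 20 without the wider set. As deposited they numbered 32 (6.50% of all tested genes). Shares of all tested genes were not counted when centred, without the wider set, with the other pseudocount or minimum, or at 1.5-fold. Those counts therefore have no background beside them. Omitting the filter left the values of the 50 genes unchanged. No paired test was run, since each line held 1 library per condition, and no result comes from a test. The shSKP2 and shSCR libraries were compared within each line, and a fit over all 4 libraries with line as a term was not run. Depth is unknown, so the counting error of low values such as those of HMMR cannot be given.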
